A study of Mus musculus with 6 samples.

Results

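The Ring1B-only regions are places in the genome where a peak of Ring1B was listed and no peak of Cbx7, RYBP or Suz12 touched it. The peaks of the 4 lists were pooled, peaks sharing at least 1 bp were merged into regions, and the regions that held Ring1B and no other list were kept. The regions were thus chosen by the listed peak positions, and widths and distances, which rest on the same positions, are given as a description without a test. They numbered 795 of 13390 merged regions (5.94%, 95% Wilson interval 5.55 to 6.35%) and 11.8% of the 6721 regions with Ring1B (11.1 to 12.6%). Each of them consisted of a single Ring1B peak, so they were also 11.4% of the 6982 Ring1B peaks. Because those peaks were short, they covered 0.596 Mb, which was 4.22% of the sequence under Ring1B peaks.

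The lists come from chromatin immunoprecipitation and sequencing in wild-type E14Tg2A cells, an embryonic stem cell line of the 129/Ola mouse strain that was kept without feeder cells in serum and leukemia inhibitory factor. All libraries were made from these untreated cells, with 1 library each for Ring1B, Cbx7, RYBP and Suz12, and a further 2 libraries made with rabbit IgG were not analysed here. The Ring1B antibody was raised in the submitters' own laboratory and the other antibodies were commercial. The lists hold 6982 Ring1B, 2754 Cbx7, 6872 RYBP and 8054 Suz12 peaks as positions only, and neither read depth nor peak height can be read from them. Since every target had a single library, the intervals and p-values below describe the regions of these lists and have no replicate check.

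Ring1B is the ubiquitin ligase at the core of the Polycomb complex PRC1, which places ubiquitin on histone H2A at silenced developmental genes. Canonical PRC1 carries a Cbx protein such as Cbx7, whose chromodomain binds trimethylated lysine on histone H3. That mark is written by PRC2, of which Suz12 is a core subunit. Variant PRC1 carries RYBP or its relative YAF2 in place of a Cbx protein and can reach chromatin without PRC2. A Ring1B site with none of the other peaks therefore has no listed partner from either route, although a site below the calling limit of another list would look the same.

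Ring1B-only regions were narrow. Their widths ran from 169 to 2787 bp with a median of 670 bp (quartiles 530 and 872.5 bp), and 82.6% were under 1 kb. Among Ring1B peaks that shared a region with any other list, the median was 1798 bp (quartiles 1233 and 2611 bp) and 15.4% were under 1 kb. Ring1B peaks with RYBP and without Cbx7 or Suz12 had a median of 976.5 bp, and those with Suz12 and without Cbx7 or RYBP had a median of 1413 bp. The 10 Ring1B peaks with Cbx7 and without RYBP or Suz12 had a median of 687 bp, close to that of the Ring1B-only regions. The widest Ring1B peaks lay with both Cbx7 and Suz12, at a median of 2476 bp without RYBP and of 2866.5 bp with all 4 subunits. A wide peak meets another peak more easily than a narrow one, so width is tied to how the regions were chosen and these values are a description.

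**Figure D1:**
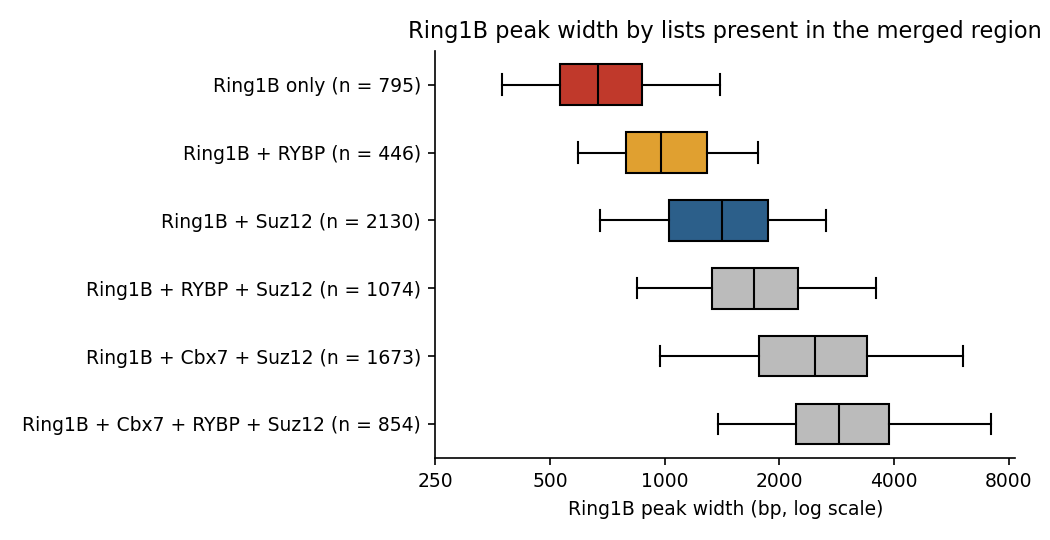
Width of Ring1B peaks in base pairs (log axis) by the lists present in the merged region; boxes span the quartiles with the median as a line, and whiskers run from the 5th to the 95th percentile. The Ring1B-only box, with its median at 670 bp, lies farthest to the left, and the box for all 4 subunits, with its median at 2866.5 bp, lies farthest to the right.

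Narrowness marked the lone peaks of the other subunits as well. Cbx7 peaks that no other list touched had a median width of 619 bp, whereas Cbx7 peaks shared with any list reached 2014 bp. Lone Suz12 peaks stood at 853 bp and shared ones at 1903.5 bp. RYBP differed least, with 1176.5 bp for lone and 1297 bp for shared peaks. The lone Ring1B peaks thus resembled lone Cbx7 peaks in width more than they resembled lone RYBP peaks.

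Sorted by width, the narrowest quintile of Ring1B peaks (169 to 926 bp) was 45.0% Ring1B-only (628 of 1397 peaks, 95% Wilson interval 42.4 to 47.6%). It held 79.0% of all Ring1B-only regions. In the second quintile (927 to 1411 bp) the share was 9.31%, in the middle quintile it was 2.08%, and in the next it was 0.430%. Of the widest 1398 Ring1B peaks, 2 were without a partner. Even in the narrowest quintile, 27.6% of Ring1B peaks lay with Suz12 without Cbx7 or RYBP, and 14.2% lay with RYBP without Cbx7 or Suz12, so a narrow Ring1B peak was not by itself a lone one.

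Most Ring1B-only regions lay more than 10 kb from the other subunits. The nearest peak of any other list was under 10 kb from 200 of them (25.2%, 95% Wilson interval 22.3 to 28.3%), between 10 and 100 kb from 351 (44.2%) and over 100 kb from 244 (30.7%, 27.6 to 34.0%). The median gap to any other list was 42.6 kb (quartiles 9.90 and 128 kb). The nearest list was Suz12 for 426 regions, RYBP for 314 and Cbx7 for 55. The lists also rank in this order by length, and the part of list length in these counts was not tested.

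Suz12, the PRC2 subunit, was under 10 kb from 157 Ring1B-only regions (19.7%, 17.1 to 22.7%), between 10 and 100 kb from 272 (34.2%) and over 100 kb from 366 (46.0%). The median gap to Suz12 was 87.1 kb. RYBP, the variant subunit, was under 10 kb from 105 regions (13.2%, 11.03 to 15.7%), between 10 and 100 kb from 291 (36.6%) and over 100 kb from 398 (50.1%), with a median gap of 101 kb. For 1 region, on chromosome Y, the RYBP list held no peak on the same chromosome. Cbx7, the canonical subunit, was under 10 kb from 75 regions (9.43%, 7.59 to 11.7%), between 10 and 100 kb from 125 (15.7%) and over 100 kb from 595 (74.8%), with a median gap of 291 kb. Another Ring1B peak was under 10 kb from 157 regions (19.7%), and over 100 kb from 385 (48.4%).

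Combinations within 10 kb showed how these neighbours went together. Suz12 alone was nearby for 53 regions, RYBP alone for 40 and Cbx7 alone for 3. Suz12 with Cbx7 was nearby for 39 regions, Suz12 with RYBP for 32 and all 3 lists for 33. Of the 75 regions near Cbx7, 3 thus had neither Suz12 nor RYBP within the same limit. The nearest Cbx7 peak lay in a region with no other list for 4 of these 75 (5.33%, 2.09 to 12.9%). In the whole series, 201 of 2550 regions with Cbx7 (7.88%) held no other list, a share inside that interval. At the other extreme, 573 regions (72.1%, 68.9 to 75.1%) had no peak of any list, Ring1B included, under 10 kb, and 222 (27.9%, 24.9 to 31.1%) lay over 100 kb from every other peak of all 4 lists. Median width changed little with the gap, from 714.5 bp for regions under 10 kb from another list to 677 bp between 10 and 100 kb and 635 bp beyond.

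The close neighbours were often immediate ones. Of the 157 Ring1B-only regions under 10 kb from Suz12, 81 had a gap under 1 kb, 13 a gap of 1 to 2 kb, 20 of 2 to 5 kb and 43 of 5 to 10 kb. Cbx7 showed the same concentration, with 50 of 75 gaps under 1 kb. The gaps to other Ring1B peaks did so too, with 86 of 157 under 1 kb. RYBP gaps were spread more evenly, with 18 of 105 under 1 kb, 18 of 1 to 2 kb, 25 of 2 to 5 kb and 44 of 5 to 10 kb. In all, 91 regions (11.4%) lay under 1 kb from a peak of another list, and 71 of these 91 (78.0%, 68.5 to 85.3%) also had another Ring1B peak under 1 kb away. Among the remaining 704 regions, 15 had such a Ring1B neighbour (2.13%, 1.295 to 3.49%).

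**Figure D2:**
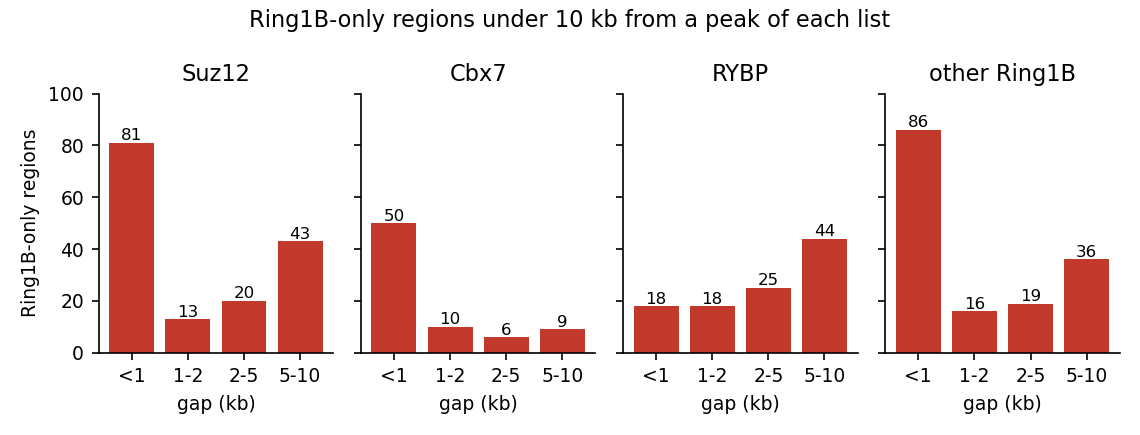
Number of Ring1B-only regions by gap in kb to the nearest Suz12, Cbx7, RYBP or other Ring1B peak, for gaps under 10 kb; the bins are of unequal width. Gaps under 1 kb make up the tallest bar for Suz12 (81), Cbx7 (50) and other Ring1B peaks (86), whereas for RYBP the bars under 1 kb and from 1 to 2 kb, which span equal lengths, both stand at 18.

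Of the 81 regions with a Suz12 peak under 1 kb away, 71 had that peak in a region with Ring1B and 10 in a region without. Over all 157 regions under 10 kb from Suz12 the count was 122 (77.7%, 70.6 to 83.5%), an interval that includes the 71.2% of all Suz12 regions that hold Ring1B. The median gap to these 122 was 506 bp, and the neighbouring region had a median width of 2161 bp. For the other 35, the Suz12 peak lay in a region without Ring1B, at a median gap of 4755 bp and with a median region width of 859 bp. Regions with Ring1B, Cbx7 and Suz12 were the most frequent neighbour, at 43 of 157 (27.4%, 21.0 to 34.8%), and made up 19.9% of all Suz12 regions. Of the 105 regions near RYBP, 61 had a RYBP neighbour with Ring1B (58.1%, 48.5 to 67.1%), whereas 33.8% of all RYBP regions hold Ring1B. These shares were not tested against each other. Of the 81 regions under 1 kb from Suz12, 61 had Suz12 on 1 side and 20 on both sides (24.7%, 16.6 to 35.1%), so that most stood at the edge of a neighbouring site and a smaller number stood between sites. Whether such neighbours are parts of one domain that was listed in pieces was not tested.

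Distances were then set beside those of the 2 most similar classes, 2099 regions with Ring1B and Suz12 without Cbx7 or RYBP, and 446 regions with Ring1B and RYBP without Cbx7 or Suz12. For Suz12, Cbx7 and RYBP, only classes that the subunit does not touch were compared, and for Ring1B the nearest peak outside the region was used. The median gap to Suz12 was 87.1 kb for Ring1B-only regions and 73.0 kb for regions with Ring1B and RYBP. To Cbx7 it was 291 kb, beside 221 kb with Ring1B and Suz12 and 253 kb with Ring1B and RYBP. To RYBP it was 101 kb, beside 80.6 kb with Ring1B and Suz12. The gaps are measured between the same listed peaks that set the classes. The shares, odds ratios and exact intervals below are therefore a description, not a test, and carry no p-value.

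Fewer Ring1B-only regions than regions with Ring1B and Suz12 had Cbx7 or another Ring1B peak under 10 kb away. Cbx7 was under 10 kb from 9.43% of Ring1B-only regions and from 14.5% of regions with Ring1B and Suz12 (95% Wilson interval 13.1 to 16.1%), an odds ratio of 0.613 (exact 95% interval 0.463 to 0.804). Another Ring1B peak was under 10 kb from 19.7% and 26.6% (24.7 to 28.5%), an odds ratio of 0.680 (0.553 to 0.833). Within quintiles of Ring1B peak width, the Mantel-Haenszel odds ratios under 10 kb were 0.473 for Cbx7 and 0.576 for Ring1B. With peaks within 1 kb merged, which removes shorter gaps by construction, the odds ratio for Cbx7 was 0.237. Both directions under 10 kb depended on which peaks define the class. When the Cbx7, RYBP and Suz12 lists kept only their peaks of at least median width, the odds ratios turned to 1.09 for Cbx7 and 1.16 for Ring1B, and 2668 regions then counted as Ring1B-only. Among the 17 Ring1B-only regions of at least the median Ring1B peak width, none was under 10 kb from Cbx7 or from another Ring1B peak of that width.

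RYBP was under 10 kb from 13.2% of Ring1B-only regions and from 13.7% of regions with Ring1B and Suz12 (12.3 to 15.3%), with an odds ratio of 0.957 (exact 95% interval 0.745 to 1.22). The interval spans values on both sides of 1 and is given as a description. At 100 kb, 49.8% of Ring1B-only regions and 54.5% of regions with Ring1B and Suz12 had a RYBP peak.

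Beside regions with Ring1B and RYBP, more Ring1B-only regions had the remaining subunits under 10 kb away. Suz12 was under 10 kb from 19.7% of Ring1B-only regions and from 10.8% of regions with Ring1B and RYBP (8.21 to 14.0%), with an odds ratio of 2.04 (exact 95% interval 1.43 to 2.95). For Cbx7 the shares were 9.43% and 2.91% (1.71 to 4.92%), with an odds ratio of 3.47 (1.88 to 6.89). For another Ring1B peak they were 19.7% and 9.87% (7.43 to 13.0%), with an odds ratio of 2.25 (1.56 to 3.29). With a limit of 5 kb the odds ratios were 3.39 for Suz12, 13.3 for Cbx7 and 4.03 for Ring1B. With the other lists limited to peaks of at least median width, that for Cbx7 was 10.3. With a limit of 20 kb the odds ratios were 1.405 for Suz12, 2.80 for Cbx7 and 1.53 for Ring1B. Up to 100 kb the order turned for Suz12, found near 54.0% of Ring1B-only regions and 61.7% of regions with Ring1B and RYBP. It also turned for another Ring1B peak, at 51.6% and 59.2%, and for Cbx7 the shares were 25.2% and 25.1%.

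The differences from regions with Ring1B and RYBP under 10 kb lay in the gaps under 1 kb. Suz12 was under 1 kb from 10.2% of Ring1B-only regions (8.27 to 12.5%) and from 3 of the 446 regions with Ring1B and RYBP (0.673%, 0.229 to 1.96%), whereas 9.56% and 10.1% had their nearest Suz12 peak between 1 and 10 kb. For Cbx7 the counts under 1 kb were 50 of 795 and 0 of 446 (Wilson upper limit 0.854%), and the shares between 1 and 10 kb were 3.14% and 2.91%. For another Ring1B peak the shares were 10.8% and 1.12% under 1 kb, and 8.93% and 8.74% between 1 and 10 kb. A region with RYBP also spans its RYBP peak, of median width 1225.5 bp, and the part of this width in the short gaps was not tested. When peaks within 1 kb were merged, 694 regions remained Ring1B-only, and the odds ratios became 0.9925 for Suz12, 0.745 for Cbx7 and 1.03 for Ring1B. Such merging removes every shorter gap by construction, so these odds ratios are not a separate result.

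**Figure D3:**
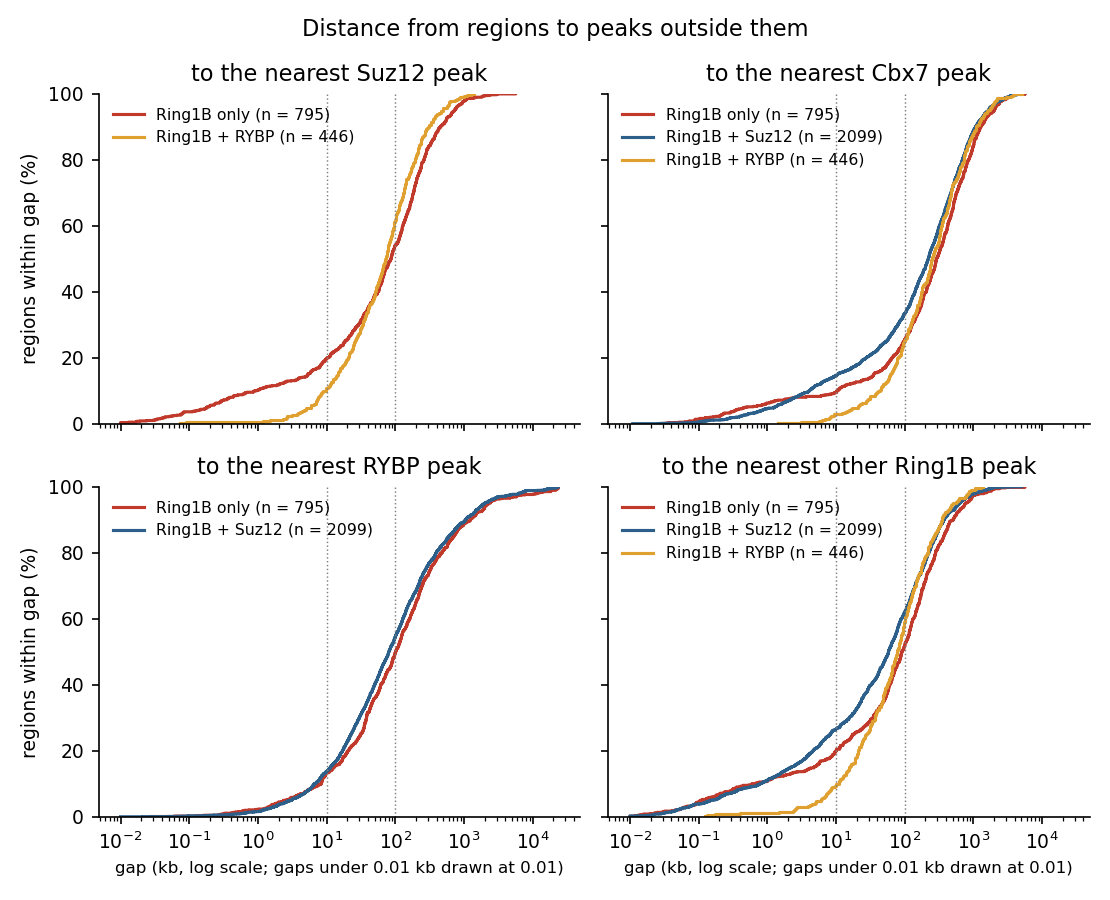
Cumulative share of regions (%) against the gap in kb (log axis) to the nearest Suz12, Cbx7, RYBP or other Ring1B peak outside the region, for Ring1B-only regions and the 2 comparison classes; dotted lines mark 10 and 100 kb, and a class that holds the subunit is not drawn. Ring1B-only regions reach 10.2% by 1 kb from Suz12, where regions with Ring1B and RYBP are at 0.673%, and for RYBP the 2 curves stand at 13.2% and 13.7% by 10 kb.

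Ring1B-only regions were found on every chromosome. Chromosome 5 held the most, with 60 regions (7.55%), followed by chromosome 9 with 55 and chromosome 3 with 54. Relative to the length of sequence up to the last listed peak, chromosome 9 had the highest density, with 44.4 regions per 100 Mb, and chromosome 1 had the lowest, with 18.8. The share of Ring1B regions that were Ring1B-only ran from 8.58% on chromosome 4 (95% Wilson interval 6.29 to 11.6%) to 17.1% on chromosome 10 (13.3 to 21.7%) among the autosomes. On the autosomes the median width varied between 571 bp on chromosome 1 and 767.5 bp on chromosome 7.

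Compared with regions with Ring1B and Suz12, no chromosome differed beyond the threshold: 0 of 21 were called higher (0%) and 0 were called lower (0%) at an adjusted p below 0.05 in two-sided Fisher's exact tests, and 4 had an unadjusted p below 0.05. Those were chromosome 3, with 6.79% of Ring1B-only regions against 4.19% (odds ratio 1.67, adjusted p = 0.059 by this exact test), chromosome 10, with 6.54% against 4.002% (odds ratio 1.68, adjusted p = 0.059), and chromosomes 1 and 4, each with 4.65% of Ring1B-only regions against 6.72% and 6.86% (adjusted p = 0.240 and 0.219).

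**Figure D4:**
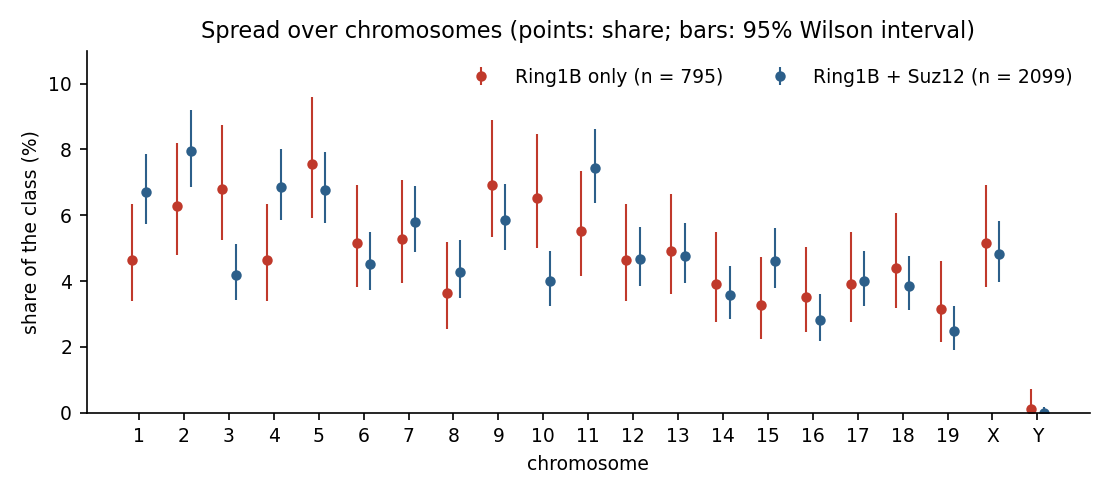
Share of each class (%) on each chromosome, for the 795 Ring1B-only regions and the 2099 regions with Ring1B and Suz12; points are shares and bars are 95% Wilson intervals. The Ring1B-only points stand above the others on chromosomes 3 and 10 and below them on chromosomes 1 and 4, with intervals that overlap or nearly meet.

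Chromosome X held 41 Ring1B-only regions (5.16%), and 4.81% of the regions with Ring1B and Suz12 lay there (odds ratio 1.08, exact 95% interval 0.722 to 1.58, adjusted p = 0.761 over a family of 7 exact tests). With the other 3 lists limited to peaks of at least median width, 2668 regions counted as Ring1B-only. The odds ratio was then 1.80 (adjusted p = 5.1e-04 by the same exact test). It was 0.975 with peaks within 1 kb merged and 0.847 within quintiles of Ring1B peak width, so the direction depended on the setting. Of all Ring1B regions of X, 18.6% were Ring1B-only (14.0 to 24.3%). Against all other Ring1B regions the odds ratio for X was 1.75, the lowest p of the 21 chromosomes in Fisher's exact test (p = 0.0028, adjusted p = 0.058), and it was not called. With Ring1B limited to peaks of at least median width, which left 17 Ring1B-only regions, the odds ratio against regions with Ring1B and Suz12 was 6.46 (adjusted p = 0.132 in the exact test). RYBP peaks are scarce on X, and their part in these values was not tested. None of the 41 regions of X had a RYBP peak within 100 kb, and the median gap to RYBP there was 6.07 Mb, compared with 91.9 kb on the autosomes. Suz12 was under 10 kb from 9 of the 41 (22.0%, 12.003 to 36.7%) and from 19.7% on the autosomes. Cbx7 was under 10 kb from 6 of the 41 (14.6%, 6.88 to 28.4%) and from 9.16% on the autosomes. Median width was 673 bp on X and 670 bp on the autosomes.

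Few Ring1B-only regions had another one under 10 kb away. The median gap to the next one was 762 kb (quartiles 223 and 1934 kb), and 39 of 795 (4.91%) had another under 10 kb away. These gaps were not compared with a random spread. Of the 157 regions under 10 kb from another Ring1B peak, 30 had a Ring1B-only region as that neighbour (19.1%, 13.7 to 26.0%). Of all Ring1B regions, 11.8% were Ring1B-only, and these shares were not tested against each other. Divided into windows of 1 Mb, the Ring1B-only regions occupied 621 windows, of which 492 (79.2%) held 1 region and 95 held 2. The fullest window, on chromosome 13 from 21000000 to 22000000, held 6 among 10 Ring1B peaks, with 11 RYBP, 4 Suz12 and 0 Cbx7 peaks. The next, on chromosome X from 11000000 to 12000000, held 5 among 17 Ring1B peaks, with 21 Suz12, 11 Cbx7 and 0 RYBP peaks. Among the 6 windows with 4 regions, the first in order, on chromosome 10 from 43000000 to 44000000, had 7 Ring1B, 6 Suz12, 5 RYBP and 2 Cbx7 peaks. The 2 fullest windows thus differed in their surroundings, the first with RYBP and without Cbx7 and the second with Cbx7 and without RYBP. The lack of RYBP was not particular to the second window, since all 41 Ring1B-only regions of X lay over 100 kb from RYBP.

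Individual regions are given in mm9 coordinates as listed. The widest Ring1B-only region lay on chromosome X from 121306263 to 121309050 (2787 bp), with a lone Cbx7 peak 13.9 kb away and Suz12 at 147 kb. The second, on chromosome 8 from 13676100 to 13678851 (2751 bp), had its nearest peak of another list 182 kb away. The third, on chromosome 19 from 44480633 to 44483237 (2604 bp), was 101 kb from a region with all 4 subunits. The fourth, on chromosome 12 from 114333393 to 114335742 (2349 bp), lay 42.3 kb from a region with Ring1B, RYBP and Suz12. The fifth, on chromosome X from 136966309 to 136968650 (2341 bp), lay 76.7 kb from a lone Suz12 peak. All 5 exceeded the 1639 bp median of the whole Ring1B list, and none had a peak of any list closer than 13.9 kb.

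The narrowest region, on chromosome X from 84862203 to 84862372 (169 bp), was also the most remote, 5664 kb from the nearest Suz12 and Ring1B peaks. The next narrowest lay on chromosome 17 from 47197550 (176 bp), on chromosome 18 from 30054983 (185 bp) and on chromosome 10 from 11054338 (189 bp) and 44310586 (197 bp), at 79.0, 372, 17.8 and 60.5 kb from another list. After the first, the most remote regions lay on chromosome X from 114333902 (3069 kb from any other list), on X from 113400666 (2988 kb), on chromosome 15 from 18751126 (2289 kb) and on X from 17739376 (1896 kb). So 4 of the 5 most remote regions were on X, and for all 5 the nearest other list was Suz12. The median gap to RYBP was 6.07 Mb on X and 91.9 kb on the autosomes, and the part of this in the remoteness was not tested. All 5 of the most remote regions were 700 bp wide or less, beside a median of 670 bp for all Ring1B-only regions.

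At the other end, 35 Ring1B-only regions were kept apart from another list by a gap under 100 bp, and 77 by a gap under 500 bp. The smallest gap, 3 bp to Suz12, was that of a 607 bp region on chromosome X from 11730503 to 11731110, in the second of the fullest windows. A 1253 bp region on chromosome 11 from 96189946 to 96191199 missed a Suz12 peak by 4 bp and had Cbx7 at 1146 bp and another Ring1B peak at 82 bp. It lay in a 1-Mb window with 43 Ring1B and 56 Suz12 peaks. The other 3 gaps were 9 bp on chromosome 4 from 135702446, 13 bp on X from 11575201 and 17 bp on chromosome 17 from 3313450, each to a Suz12 peak of a region that also held Ring1B. Outside the rule, the smallest overlaps with a single other list were all with Suz12. They were 37 bp on chromosome 7 from 25421157, 73 bp on X from 133242291 and 74 bp on chromosome 1 from 90911831. Next came 174 bp on chromosome 4 from 73460605 and 179 bp on chromosome 10 from 107131479. Those on chromosomes 4 and 10 involved short peaks and were not near misses. The 174 bp were the whole Suz12 peak, and the 179 bp lay in a Ring1B peak of 191 bp. Of the regions with Ring1B and 1 other list, 3 overlapped it by under 100 bp.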

How the data were processed

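The authors deposited 1 peak list per target, as peak start and end in base pairs without heights, scores or p-values. Build mm9, MACS 1.3.7.1 and Bowtie 0.12.7 are named, without their roles, per the submitters' processing notes. Control, threshold and treatment of replicates: not given in the sources used here. Peak names carry 5 for RYBP and 10 for the others, with no stated meaning. A Cbx7, RYBP or Suz12 list called less strictly would leave fewer Ring1B-only regions, and a stricter one more.

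Targets named in the lists tied each list to its sample. Gaps were measured from region edge to peak edge. Shares have 95% Wilson intervals and odds ratios have exact ones, and both cover the sampling of regions only. The analysis used Python 3.11.15, pandas 2.3.3, SciPy 1.17.1, statsmodels 0.14.6 and matplotlib 3.10.9, and merging and counting were tested on simulated data. Chromosome shares were tested with Fisher's exact test, two-sided and with Benjamini-Hochberg adjustment, which treats neighbouring regions as independent, and the threshold for a call was an adjusted p below 0.05. The same test had been set out for 6 comparisons of distance, in a family of 7 with chromosome X. These are given without p-values, because gaps use the positions that set the classes. Regions named are the 5 widest, narrowest, nearest and most remote, the 5 smallest overlaps outside the rule and the 3 fullest windows of 1 Mb (start positions decide the window; ties by chromosome and start). The 96-Mb neighbourhood on chromosome 11 was described after its values were seen. The members and lists were chosen with earlier results of these data known. The division of gaps at 1 kb and the side of each neighbour were added after the data were seen. No genome or annotation of mm9 was used here, so genes, promoters and sequence content were not analysed.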

Additional observations from a re-analysis of the deposited data

How the results depend on the processing

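The settings tried were a required overlap of 50% of the shorter of both peaks, merging within 1 kb, other lists or Ring1B limited to peaks of at least median width, leaving out X and Y, limits of 5 and 20 kb, and Mantel-Haenszel pooling over quintiles of Ring1B width. Leaving out X and Y changed no direction, and 753 regions remained. With 50% overlap, 23.04% of Ring1B-only regions were near Suz12. With merging within 1 kb, which removes shorter gaps by construction, the shares near Suz12, RYBP and Cbx7 were 9.80%, 9.51% and 2.02%. Against regions with Ring1B and RYBP the odds ratios were then 0.9925 (Suz12), 0.745 (Cbx7) and 1.03 (Ring1B), and for X 0.975. With the other lists limited, 2668 regions counted as Ring1B-only, with a median width of 975 bp and 7.05% near RYBP. Against regions with Ring1B and Suz12 the odds ratios were 1.09 (Cbx7), 1.16 (Ring1B) and 1.80 (X). With Ring1B limited, 17 regions remained, with a median of 1900 bp, 0% near Suz12 and Cbx7 and 5.88% near RYBP. The odds ratios for Cbx7 and Ring1B against either class and for Suz12 were 0. The odds ratio for RYBP was 1.01 at 5 kb and 1.085 within width quintiles, and that for X was 0.847 within quintiles (not called). No chromosome was called against all other Ring1B regions either (0 of 21, with 7 at an unadjusted p below 0.05 in Fisher's exact test). No paired analysis was possible because each target had 1 library. Without read counts, weak binding below the calling limit cannot be told apart from absence.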
